A study of Mus musculus with 16 samples.

Results

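The genes described here are 35 genes known for their expression in the cells that line blood and lymph vessels, though some are also made by other cells, and which had been noticed at higher levels in sorted hair follicle stem cells (HFSC) of eKO mice than in those of controls. They were chosen by symbol from a list drawn up with that HFSC comparison in view, and all 35 symbols matched a row of both deposited tables, out of 55305 rows that the tables share. The HFSC difference between genotypes therefore chose the genes, and its values are given as a description without a test. Skin levels served as the reference, but the comparison of genotypes in skin took no part in the choice. The name of the group, endothelial genes appearing in eKO stem cells, holds for part of them only. Tek, Sox7, Clec14a, Eng and Ramp2 had reads in all control HFSC libraries, with means from 23.9 (Ramp2) to 150 (Sox7) normalised reads. Flt1, Pecam1, Plvap, Aqp1, Mmrn2 and Rasip1 also had reads in all of them, with lower means, from 5.45 (Rasip1) to 16.1 (Pecam1). Flt4, Egfl7, Gpihbp1 and Ecscr had almost no reads in eKO HFSC.

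The study addresses the G-protein-coupled receptor kinase GRK2, which phosphorylates activated G-protein-coupled receptors, in the upkeep of the hair follicle. All mice were C57BL/6, and the genotypes are labelled Control and GRK2 eKO; the labels used here do not spell out eKO or name a Cre driver. There were 5 control and 5 eKO libraries of back skin from animals aged 8 months. A further 3 control and 3 eKO libraries came from HFSC, which are bulge cells sorted for CD34 and α6-integrin, labelled as 18 months old (the design text of the series gives 8). The labels do not say whether libraries came from separate animals, so p-values measure only the spread between these samples. The depth was 6428488 to 9387378 gene reads per HFSC library and 8213632 to 16383486 per skin library.

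Grk2 itself was measured first as a check of the labels. In HFSC it was at 139, 121 and 144 normalised reads in controls and 114, 122 and 104 in eKO (log2 fold change -0.24, SE 0.23, limma adjusted p 0.501), and in skin at 1298 ± 144 (SD, n = 5) against 1110.4 ± 93.8 (SD, n = 5) (log2 fold change -0.22, SE 0.10, limma adjusted p 0.343). The gene-level values therefore do not tell the genotypes apart, the deleted exons are not named in the sources used here, and eKO below means a library labelled so. The 15 bulge marker genes had a median level of 431% of control skin in control HFSC and 449% in eKO HFSC. Levels were measured as reads per 1000000 gene reads (RPM), and both medians were the value of Tbx1. Tbx1 is also in the lymphatic list used below, and Cd34 and Itga6, the antigens of the sort, are among the 15. These genes therefore check the sort only in part. Their summed level was lower in eKO, at 21467 to 24122 RPM against 25978 to 26542, and 6 of the 15 were lower without overlap and 2 higher. Over all tested HFSC genes, 17.4% were lower without overlap and 18.9% higher.

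Endothelial cells form the inner layer of every vessel. They grow towards vascular endothelial growth factor (VEGF) through the receptors KDR, FLT1 and FLT4, are stabilised by angiopoietins through TEK with its partner TIE1, and hold together by junctions built on VE-cadherin (CDH5) and PECAM1. Transcription factors of the ETS family (ERG) and of the SOXF group (SOX7, SOX17, SOX18) maintain their identity. In skin, a plexus of small vessels lies close to the follicle bulge. CD34 and α6-integrin, the antigens of the sort, are also carried by endothelial cells of small vessels, so this gate does not by itself separate them from bulge cells.

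Promoters of 4 of the genes are shown because ETS factors, which bind a GGAA core, are known regulators of endothelial genes. The 4 did not behave alike: Tek overlapped between genotypes and Erg had few reads in eKO HFSC. Each is the stretch of 250 bases before the start site as RefSeq gives it on GRCm38.p6, 5′ to 3′ on the gene's strand, for the gene with the highest eKO HFSC level in its role group among those with an entry. The submitters' processing notes name GRCm39, and no coordinate was compared with the tables. Capitals mark GGAA or its reverse complement TTCC.
Tek, chr4:94739039-94739288, plus strand: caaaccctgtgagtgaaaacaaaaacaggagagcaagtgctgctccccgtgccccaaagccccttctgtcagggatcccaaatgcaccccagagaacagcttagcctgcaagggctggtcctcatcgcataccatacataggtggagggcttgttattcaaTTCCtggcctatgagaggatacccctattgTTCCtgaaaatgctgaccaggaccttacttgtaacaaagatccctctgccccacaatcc
Clec14a, chr12:58269259-58269508, minus strand: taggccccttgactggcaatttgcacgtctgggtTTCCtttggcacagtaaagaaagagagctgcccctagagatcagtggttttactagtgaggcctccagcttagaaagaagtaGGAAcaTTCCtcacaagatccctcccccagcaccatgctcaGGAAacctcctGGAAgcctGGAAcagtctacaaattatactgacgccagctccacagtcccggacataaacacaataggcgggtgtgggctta
Aqp1, chr6:55336049-55336298, plus strand: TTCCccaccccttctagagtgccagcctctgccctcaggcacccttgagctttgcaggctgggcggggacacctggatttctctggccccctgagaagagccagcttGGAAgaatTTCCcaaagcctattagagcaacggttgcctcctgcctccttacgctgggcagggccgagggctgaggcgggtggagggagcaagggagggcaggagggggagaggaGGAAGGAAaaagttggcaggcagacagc
Erg, chr16:95586594-95586843, minus strand: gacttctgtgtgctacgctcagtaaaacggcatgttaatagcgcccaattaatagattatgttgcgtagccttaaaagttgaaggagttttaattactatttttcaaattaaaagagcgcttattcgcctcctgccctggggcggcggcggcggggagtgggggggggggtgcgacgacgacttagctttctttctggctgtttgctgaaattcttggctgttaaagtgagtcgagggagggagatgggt
Tek, the angiopoietin receptor, held 2 such cores on both strands together, Clec14a 6, Aqp1 5 and Erg 0. The RefSeq table held a promoter for 19 of the 35 genes. Of these, 18 (94.7%) contained GGAA on either strand, against 93.4% of all 27025 promoters of the same length. The longer CAGGAAG was found in 3 (15.8% against 10.5%), the SOX core ACAAT in 5 (26.3% against 28.2%) and the GATA letters AGATAA in 0 (against 10.2%). The other letters searched were AACAAT in 3 (15.8% against 9.62%), the KLF letters GGGTGTG in 3 (15.8% against 6.9%) and the TATA box TATAAA in 2 (10.5% against 13%). All were searched on both strands. CAGGAAG contains GGAA and AACAAT contains ACAAT, so these matches overlap. A match describes these letters in this window and is not a measured binding site.

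Unless another scale is named, a value is a normalised read count from the deposited tables. In HFSC, 30 of the 35 genes were higher in every eKO library than in every control library, 0 were lower in all, and in 5 the groups overlapped (Flt4, Tek, Ecscr, Gpihbp1 and Egfl7). Over all 13784 genes tested in HFSC, 18.9% were higher in eKO without overlap and 17.4% lower, 36.3% in all. A filter on low values (at least 10 in 3 libraries) was passed by 27 genes, and 25 of these passed limma's threshold (adjusted p under 0.05) upward and 0 downward, where 10.7% of all tested genes passed upward and 8.74% downward. Since the comparison chose the genes, and some passed the filter only through their eKO level, nothing is read from these counts. The 8 genes that did not pass were Flt4, Ecscr, Gpihbp1, Adgrl4, Egfl7, Sox17, Sox18 and Erg. The count over 35 genes above includes these 8, whereas the shares over all genes cover tested genes only. Of the 27 that passed, only Tek overlapped. Without eKO replicate 3, Kdr and Icam2 were no longer past the threshold, and Ramp2 and Tek fell short under several alternatives, each also when single libraries of either genotype were left out. In bulk samples, more cells of a type and more RNA per cell cannot be told apart. In the plot of values by library, the genotypes separate for most genes in the HFSC panel and lie over each other in the skin panel.

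**Figure D1:**
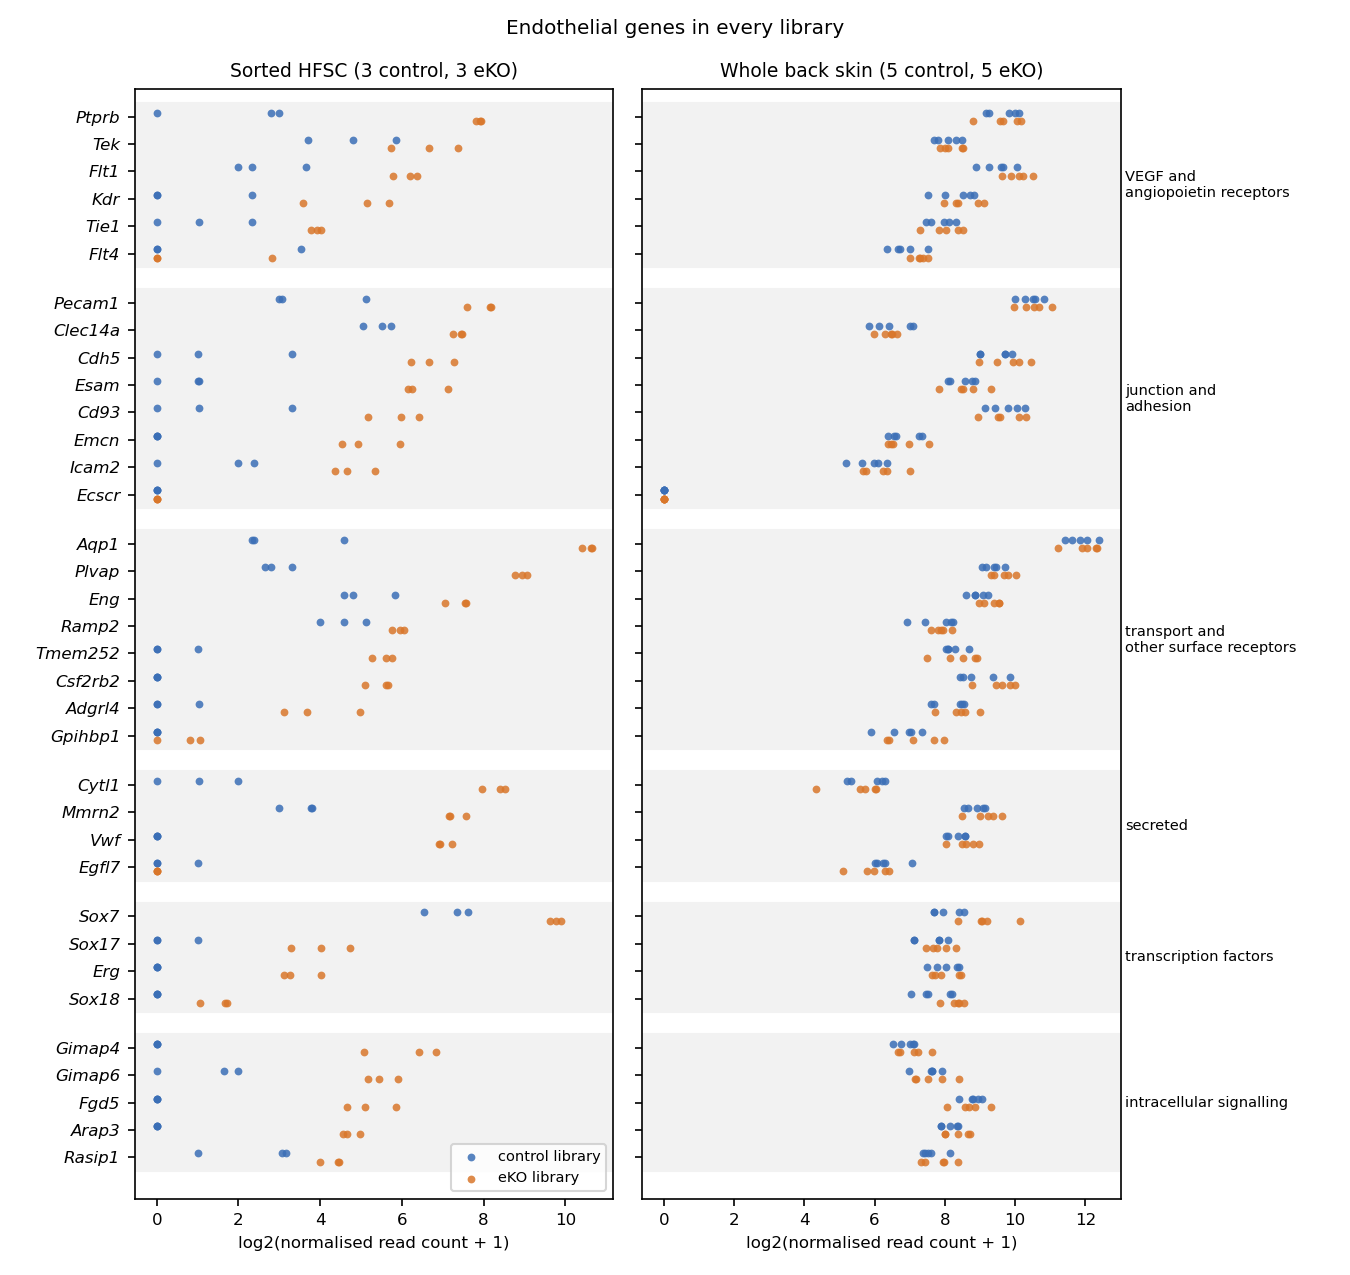
Each point is the log2(normalised read count + 1) of 1 gene in 1 library, in sorted HFSC (left) and whole back skin (right), with control libraries in blue and eKO libraries in orange and genes grouped by role. In HFSC the groups are apart for 30 of 35 genes, whereas in skin they overlap for all 35; the panels were normalised separately by the authors.

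The first group holds the VEGF and angiopoietin receptors with Ptprb (ENSMUSG00000020154), the phosphatase that restrains TEK signalling. The control libraries of Ptprb held 6.98, 0 and 6 and its eKO libraries 240.3, 224 and 243, a mean of 4.33 ± 3.78 (SD, n = 3) against 236 ± 10.5 (SD, n = 3), or 54.5-fold. The 3 eKO libraries lay close together, far above every control. Tek (ENSMUSG00000006386) was at 26.9, 56.8 and 12 in controls and at 52.3, 163 and 100.1 in eKO, a ratio of means of 3.3. Here the lowest eKO library was below the highest control, and every control library held reads of the gene. Flt1, the VEGF receptor that also acts as a decoy, was at 3.99, 11.6 and 3 against 81.1, 53.7 and 72.4 (11.2-fold). Kdr, the main signalling receptor for VEGF-A, was more scattered, at 3.99, 0 and 0 against 34.1, 11 and 50.1. Its eKO replicate 2 was the lowest of the eKO libraries, and all 3 exceeded the controls. Tie1, the partner receptor of TEK, was at 3.99, 1.05 and 0 against 15.2, 14.3 and 12.8; it passed the filter and not limma's threshold. Flt4, the receptor for the lymphatic factor VEGF-C, went the other way on average, with 0, 10.5 and 0 in controls and 6.07, 0 and 0 in eKO. It had reads in 1 library of each genotype and did not pass the filter.

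The junction and adhesion genes were higher in eKO HFSC in 7 of 8, the exception being Ecscr. Pecam1 (ENSMUSG00000020717), which joins endothelial cells to each other and serves leukocyte passage, was at 6.98, 7.36 and 34 in controls and at 289.6, 191 and 284 in eKO (15.8-fold). Clec14a (ENSMUSG00000045930), a C-type lectin of endothelium, was at 44.9, 52.6 and 32 against 173, 178 and 152 (3.88-fold), so every control library held it. Cdh5 (ENSMUSG00000031871), VE-cadherin, was at 8.98, 0 and 1 against 101, 73.4 and 154 (33-fold). All 3 were without overlap, but they started from different control levels. Esam, a tight junction molecule, had 2 reads over the 3 control libraries together and 316 over the eKO libraries, a ratio of 147 with an exact 95% counting interval from 40.4 to 1221. Emcn, the sialomucin of venous and capillary endothelium, had 0 reads in all 3 controls and 22, 29.6 and 60.7 in eKO, which makes it at least 12.3-fold higher against a floor of 3 reads per library. Icam2, a ligand of leukocyte integrins, and Cd93, a receptor for multimerin 2, were higher by 11.6 and 18 times. Ecscr, a regulator of endothelial migration, was listed at 0 in all 16 libraries of both tissues, and nothing can be said of it.

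Of the transport genes and other surface receptors, Aqp1 (ENSMUSG00000004655), the water channel of endothelium and red cells, stood first both in reads and per length. Its control libraries held 22.9, 4.21 and 4 and its eKO libraries 1574, 1597 and 1358, a ratio of means of 145. Plvap (ENSMUSG00000034845), which forms the diaphragms of fenestrae and caveolae, was at 5.98, 5.26 and 9 against 434, 532 and 489 (71.9-fold). In both genes the eKO libraries differed little among themselves. Eng, the endothelial co-receptor for BMP9, was at 26.9, 55.8 and 23 against 187, 185 and 131 (4.77-fold), and Ramp2, a subunit of the adrenomedullin receptor, at 15, 33.7 and 23 against 61.4, 52.6 and 65 (2.5-fold). Both were present in the controls. Csf2rb2, an interleukin-3 receptor chain, had 0 reads in every control and was at least 14.2-fold higher; it is nearly identical to Csf2rb, and how shared reads were counted is not given in the sources used here. Tmem252 had 1 control read in all and Adgrl4, an adhesion receptor of angiogenic endothelium, 1 (eKO values 53.1, 37.3 and 47.9 for Tmem252 and 30.3, 7.67 and 11.7 for Adgrl4), with ratios of 139 (95% counting interval 24.5 to 5519.7) and 54 (9.32 to 2171). Gpihbp1, which carries lipoprotein lipase across capillary endothelium, stood apart, with 0 reads in controls and 0.758, 1.1 and 0 in eKO, at or under the floor in both genotypes.

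Among secreted products, Vwf (ENSMUSG00000001930), von Willebrand factor stored in endothelium for haemostasis, had 0 reads in each control and 119.8, 121 and 148 in the eKO libraries (at least 42.5-fold higher). Cytl1 (ENSMUSG00000062329), a small cytokine-like protein, was at 2.99, 1.05 and 0 against 366, 249 and 336, a ratio of means of 235 that rests on 4 control reads. Mmrn2, multimerin 2 of the vessel matrix, was at 13, 12.6 and 7 against 188, 141 and 144 (14.5-fold). These 3 were high in all eKO libraries. Egfl7, an endothelial matrix protein, was the opposite: it had 0 reads in the 3 eKO libraries and 1 read in the controls, although every skin library held it, between 33.4 and 133.

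The 4 transcription factors were all higher in eKO HFSC without overlap. Sox7 (ENSMUSG00000063060) was at 163, 197 and 92 in controls and 783, 950.4 and 872 in eKO (5.78-fold). Every control library held Sox7, unlike the other 3 factors. Sox17 was at 0.997, 0 and 0 against 15.2, 8.77 and 25.6, Erg at 0 in each control against 15.2, 7.67 and 8.52 and Sox18 at 0 in each control against 2.27, 2.19 and 1.07. None of these 3 passed the filter, and the eKO level of Sox18 was within the floor of 3 reads. Of the intracellular signalling genes, Gimap4, a GTPase of lymphocytes and endothelium, had 0 control reads and 113, 32.9 and 84.2 in eKO (at least 25.1-fold). Gimap6 of the same family was at 2.99, 2.1 and 0 against 58.4, 35.1 and 42.6. Fgd5, an activator of the GTPase CDC42, had 0 control reads and 56.9, 24.1 and 33 in eKO (at least 12.5-fold). Arap3, a regulator of RHOA and ARF6, was likewise at 0 in controls and at 30.3, 24.1 and 22.4 in eKO (at least 8.4-fold). Rasip1, which is needed for vessel lumens, was at 0.997, 7.36 and 8 against 20.5, 20.8 and 14.9 and did not pass limma's threshold.

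The median log2 fold change in HFSC was 4.40 over the 27 genes that passed the filter, and 3.83 with the 6 genes at 0 control reads set to their bound. Over all tested genes the median was -0.029. Nothing is read from that gap, since this comparison chose the genes and some passed the filter only through their eKO level. Summed over the 35 genes, the level was 39.1 to 68.9 RPM in control HFSC and 730.2 to 758 in eKO HFSC. The eKO sums thus differed by little, but Aqp1 (194 to 227 RPM) and Sox7 (110 to 135 RPM) held a large part of them. In the control sums Sox7 held 13.7 to 29.1 RPM. Single genes did not keep the same order across the eKO libraries. Of the 30 genes without overlap, 15 were highest in eKO replicate 1, 6 in replicate 2 and 9 in replicate 3, and 17 were lowest in replicate 2. The highest eKO library was at most 1.5 times the lowest for 15 of them and more than 2 times for 9, with Kdr the most uneven at 4.57 times.

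Levels of different genes were compared per length, as RPM per kilobase of exon in GENCODE M21. On this scale Aqp1 had the highest eKO HFSC level, at 81.4, followed by Cytl1 at 42.5, Sox7 at 37.3 and Plvap at 34.6. The next genes were Gimap4, Eng, Pecam1, Mmrn2 and Clec14a, between 5.19 and 5.9 each, and the other 26 were under 5. In control skin the per-length order was different: Aqp1 was again first at 125, then Plvap at 28.7, Pecam1 at 19.5 and Cdh5 at 15.1. Cytl1 and Sox7 were at 4.76 and 7.09 there. Across the 34 genes with a mean of at least 10 in control skin, the log2 levels in eKO HFSC and in control skin had a Pearson's r of 0.525 and a Spearman's rho of 0.492, a description over genes that share libraries and their own length.

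Skin served as the reference for what a tissue with its vessels holds. Each gene's level in HFSC was expressed as a percentage of its mean in control skin, both in RPM, with the caution that the tables were made and normalised separately and may count a gene differently. By their labels the HFSC were 18 months old and the skin 8, so tissue and age cannot be told apart in these percentages. Over the 34 genes the median was 0.739% in control HFSC and 27.3% in eKO HFSC, and taken for each eKO library alone it was 29.5%, 21.2% and 32.6%. On the deposited values the eKO median was 16.5%, and over the 17 genes at 50 or more in eKO it was 56.3%. Over all 16645 genes with such a skin level the medians were 86.8% and 83%. The genes did not sit at 1 common percentage: in eKO HFSC 7 were under 10% of skin, 22 between 10% and 100%, and 5 above it.

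The 5 genes above the control skin level in RPM were Cytl1, Sox7, Clec14a, Plvap and Gimap4. Plvap and Gimap4 were below it on the deposited values (73.1% and 64.1%) and against eKO skin (96.5% and 89.9%), which leaves 3 genes above under both. Cytl1 was at 892% ± 168 (SD, n = 3), Sox7 at 526% ± 53.3 and Clec14a at 290.0% ± 22.1 of skin. Sox7 and Clec14a were already at 95.5% and 78.3% of skin in control HFSC, whereas Cytl1 was at 3.99%. Plvap was at 121% ± 12.7, and Gimap4 at 106% ± 55.4, whose libraries ran from 45.5% to 155%. Lower values were those of Vwf at 65.6%, Aqp1 at 65.1%, Ptprb at 45.9%, Pecam1 at 29.7% and Cdh5 at 24.5%. The VEGF receptors Kdr and Flt1 were at 15.5% and 15.3%, and Erg at 6.54%. At the bottom were Flt4 (2.76%), Sox18 (1.41%), Gpihbp1 (0.889%) and Egfl7 (0%), each of which had at least 33.4 in every skin library. With 0 reads in a library, up to 3 reads, or 0.32 to 0.467 RPM in HFSC, are still allowed by counting error.

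**Figure D2:**
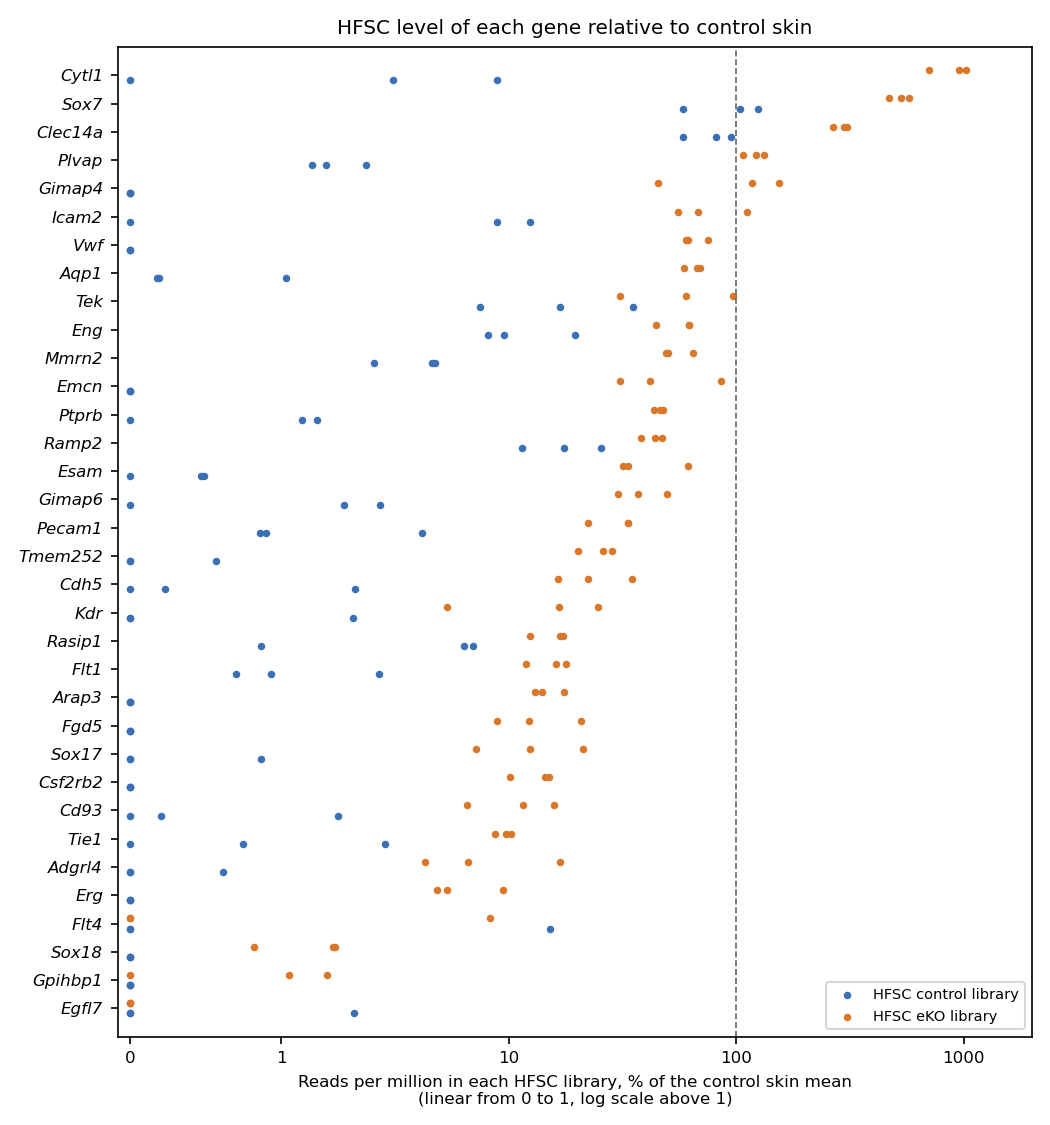
Each point is the level of 1 gene in 1 HFSC library (control in blue, eKO in orange) as a percentage of that gene's mean in control skin, in RPM, with genes ordered by the eKO mean and a dashed line at 100%. The eKO points spread from 0% for Egfl7 to 1023% for Cytl1, and 5 genes have an eKO mean above the skin level.

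A gene listed at 0 in HFSC was not always low in skin. Of 9863 genes with at least 100 in every skin library, 74 were listed at 0 in every HFSC library. Cldn5, the claudin of endothelial tight junctions, was one of them, with 218 to 759 in skin. Whether the HFSC table counts such genes in the same way as the skin table was not tested.

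Other endothelial genes that are not among the 35 were then examined from lists of vessel types. Of 32 other pan-endothelial genes, 20 passed the filter in HFSC, 10 rose and 1 fell (limma; 10.7% and 8.74% of all genes). Their median log2 fold change was 1.48, against -0.029 over all genes, for the 20 that passed the filter. Of the 20, 3 had 0 control reads and so passed the filter only through their eKO level. Genes with few control reads, such as S1pr1, also needed their eKO libraries to pass it. The list was also drawn up with earlier results of these data known, and nothing is read from the counts or that gap. The summed level of all 32 overlapped between genotypes, at 643 to 743 RPM in control and 689 to 778 in eKO HFSC. Palmd and Exoc3l2, both with a lower mean in eKO, made up most of that sum in both genotypes. It therefore says little of the other genes. The largest rise was that of S1pr1, the sphingosine-1-phosphate receptor of endothelium. It was at 0.997, 16.8 and 0 in controls and 183, 107 and 226 in eKO (log2 fold change 5.65, SE 0.86). The gene with most reads in eKO was Palmd, a paralemmin relative that HFSC held at over the skin level in both genotypes, at 2722 ± 330.1 (SD, n = 3) against 2384 ± 157 (SD, n = 3) (log2 fold change -0.19, SE 0.10, limma adjusted p 0.234). The gene that fell was Exoc3l2, from 1002 ± 23 (SD, n = 3) to 639 ± 142 (SD, n = 3). Nos3, endothelial nitric oxide synthase, was at 3.99, 4.21 and 2 against 14.4, 7.67 and 2.13 and did not pass the filter.

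The 7 venous genes outside the 35 included 5 that rose and 0 that fell, of 6 tested, with a median of 149% of the control skin level in eKO HFSC and 3.58% in control HFSC. Over all tested genes 10.7% rose and 8.74% fell. The list was drawn up with earlier results of these data known, and some of its genes passed the filter only through their eKO level. The eKO median is the value of Ackr1, and the count is a description of these 7 genes. Lrg1, a leucine-rich glycoprotein of venules that also marks other inflamed cells, went from 8.98, 7.36 and 8 to 1169, 738 and 749.9 (log2 fold change 6.57, SE 0.29, limma adjusted p 2.66e-08). Ackr1, the chemokine-binding receptor of postcapillary venules, which was picked from the list for naming after its values were seen, was at 17, 6.31 and 4 in controls and 395, 248 and 299 in eKO, 149% of skin. The selectins Selp and Sele, named on the same terms, were at 193% and 63.8% of skin in eKO, and no control library held over 3 of either. The 7 capillary genes outside the 35 were at lower percentages, with 3 of 5 tested genes higher, 0 lower and a median of 8.82% of the skin level, which is the value of Cd36. Cd36, the fatty acid translocase, went from 6.98, 15.8 and 3 to 155, 146 and 141, and Car4, chosen after its values were seen, was listed at 0 in all 6 HFSC libraries. Dermal adipocytes also express Cd36 and Fabp4, so their skin reference is not purely that of vessels. The difference between the venous and the capillary percentages was not tested.

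Of the 8 arterial genes, 3 of 6 tested rose and 0 fell, beside 10.7% and 8.74% of all genes. Their median log2 fold change was 0.07, with 3 genes above 0 and 3 below, the lowest at -1.78 without passing the threshold. The median level in eKO was 28.1% of skin. Efnb2, the ephrin ligand of arteries, was at a high level in the HFSC libraries of both genotypes. It changed from 2172 ± 47.9 (SD, n = 3) to 2677 ± 89.4 (SD, n = 3), and Mecom, a transcription factor, from 1.99, 1.05 and 9.998 to 44.7, 82.2 and 103. Of the defining lymphatic markers, Prox1, the lymphatic master regulator, had reads in 1 control library only (0, 7.36 and 0 against 0 in each eKO library), and Lyve1, the hyaluronan receptor, was at 13, 13.7 and 6 against 29.6, 24.1 and 30.9 and did not pass limma's threshold (adjusted p 0.116). Of 9 lymphatic genes outside the 35, 2 of 5 tested rose and 1 fell. The largest change was in Thy1, which other skin cells carry too (33.9, 33.7 and 35 against 209, 206 and 145), and the most reads were those of Tbx1, which bulge cells also express (1086 ± 520.4 (SD, n = 3) against 1187 ± 246 (SD, n = 3)).

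**Figure D3:**
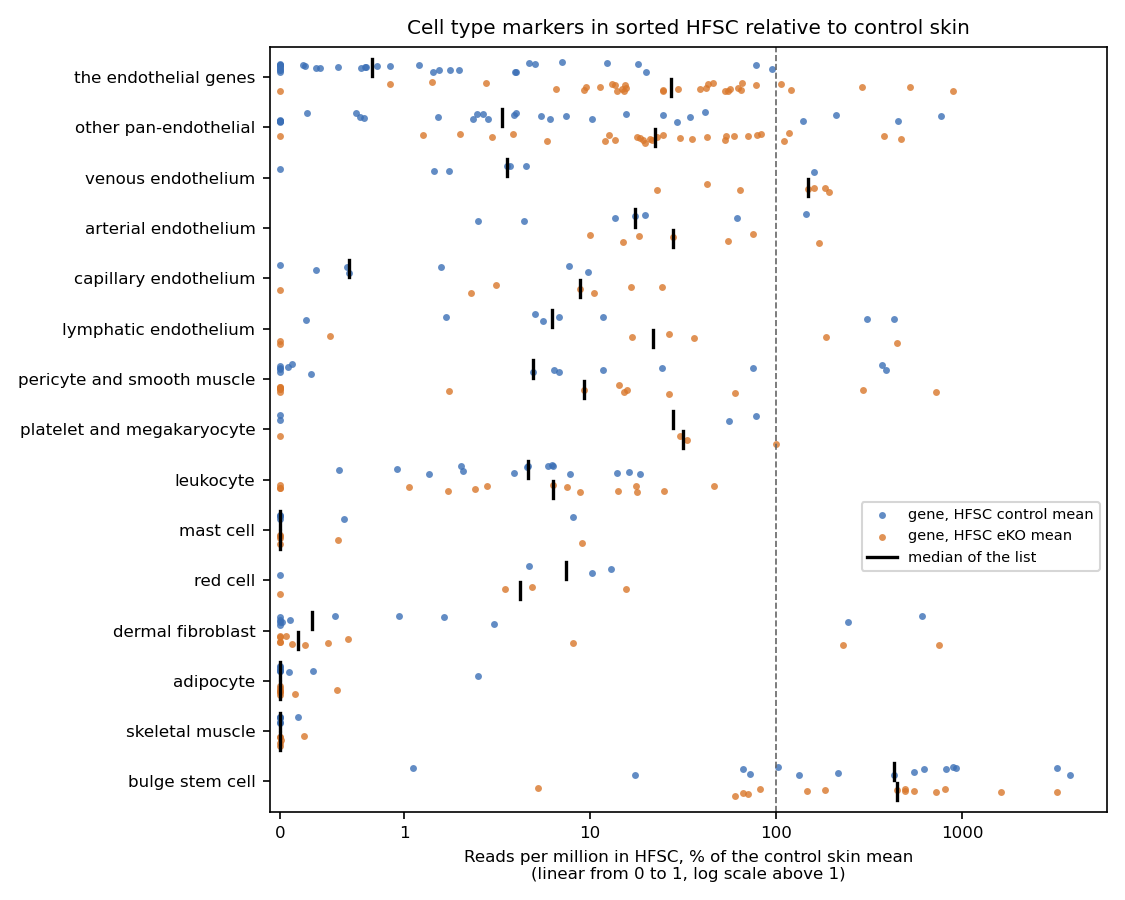
Each point is 1 gene's mean level in control (blue) or eKO (orange) HFSC as a percentage of its mean in control skin, for genes with a skin mean of at least 10, by marker list without genes counted in the first row; black bars are medians and the dashed line is 100%. The venous genes in eKO HFSC have a median of 149%, the endothelial genes 27.3%, and adipocyte and skeletal muscle genes 0%.

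The ligands of these receptors were considered next, since epithelial and stromal cells can make them. Of 19 genes of VEGF, angiopoietin and Notch ligands, co-receptors and guidance factors, 11 were tested in HFSC, 3 rose and 1 fell, with a median log2 fold change of 0.10. Over all tested genes 10.7% rose and 8.74% fell (limma). Angptl4, a secreted inhibitor of lipoprotein lipase, rose most, from 117, 134 and 126 to 572, 679 and 697 (log2 fold change 2.36, SE 0.17, limma adjusted p 1.19e-06). Nrp1 and Nrp2, co-receptors of VEGF, also rose, with log2 fold changes of 2.19 and 1.43 (adjusted p 0.0149 and 0.01, limma). Sema3c, a guidance factor that binds neuropilins, fell from 2750.4 ± 162 (SD, n = 3) to 2131 ± 238 (SD, n = 3), and Jag1, the Notch ligand with most reads, was at 2075 ± 195 (SD, n = 3) against 2222 ± 258 (SD, n = 3) (log2 fold change 0.10, SE 0.11, limma adjusted p 0.581). Vegfa, the main ligand of KDR, was listed at 1.99, 7.36 and 4 and 2.27, 2.19 and 2.13 in HFSC although skin held 1300.4 to 2987 in controls. Angpt2, the antagonist ligand of TEK, was listed at 0 in all 16 libraries.

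Markers of the other cell types that a sort could hold were measured in the same libraries, and their part in the values of the 35 genes was not tested. The pericyte markers Rgs5 and Pdgfrb had 0 reads in all 3 eKO HFSC libraries and 0, 0 and 9.998 and 0.997, 0 and 0 in controls, where skin controls held at least 1112 and 570.4. Of 15 pericyte and smooth muscle genes, 2 of 7 tested rose and 1 fell, beside 10.7% and 8.74% of all tested genes. Kcnj8, a potassium channel of pericytes, rose most (0, 5.26 and 8 against 56.1, 30.7 and 43.7). Ndufa4l2, which the HFSC libraries of both genotypes held, had most reads and also rose (1954 ± 207 (SD, n = 3) against 3995 ± 686 (SD, n = 3)). The summed level of that list was 572 to 595 RPM in control and 731 to 903 in eKO HFSC. Ndufa4l2, which rose, and Cspg4, which fell, were the 2 genes with most reads. In eKO, Ndufa4l2 made up most of the sum. For platelets, Pf4 was listed at 0 in all 6 HFSC libraries, 3 of 10 genes passed the filter with 0 called by limma, and the gene with most reads was Itga2b (27.9, 62.1 and 33 against 107, 36.2 and 23.4). Summed, the platelet list ran from 8.04 to 13.1 RPM in control and from 5.47 to 18.3 in eKO HFSC. For red cells, Hbb-bs was at 5.98, 8.42 and 9 against 10.6, 6.58 and 8.52, with the list's sum at 1.49 to 1.71 and 1.24 to 2.02 RPM; haemoglobin genes have near-identical copies and are uncertain to that extent.

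Among leukocyte markers, Ptprc, the common leukocyte antigen, was at 19.9, 14.7 and 9.998 against 28.1, 18.6 and 3.2. The counts called below stand beside 10.7% of all tested genes that rose and 8.74% that fell. Of 16 leukocyte genes, 3 of 8 tested rose, all of antigen presentation (Cd74, H2-Ab1 and H2-Eb1, the latter 2 from a family of similar genes), and Lyz2 fell from 46.9, 44.2 and 49.99 to 19.7, 13.2 and 1.07. Cd74, the class II invariant chain, which some endothelial and epithelial cells can make, rose from 122, 158 and 138 to 1442, 787 and 996. The list's sum moved from at most 67.2 to at least 202 RPM, and in eKO Cd74 made up most of it. The mast cell list summed to at most 3.89 RPM in control and 3.04 in eKO HFSC, with 1 gene tested, Kit (14, 25.2 and 0 against 19, 5.48 and 21.3), and none called. The fibroblast collagen Col1a1 was at 17, 10.5 and 23 against 14.4, 16.4 and 33. Of 12 fibroblast genes, 2 of 6 tested rose and 0 fell, namely Dcn (2.99, 0 and 0 against 28.1, 19.7 and 28.8, 0.391% of skin) and Postn, which bulge cells held at 9239 ± 427 (SD, n = 3) and 12062 ± 1067 (SD, n = 3). Adipocyte and skeletal muscle genes summed to at most 3.73 and 2.33 RPM in eKO HFSC, with 0 genes tested in either list. Their genes with most reads were Lep (2.99, 11.6 and 0 against 0, 26.3 and 0) and Ckm (0 in each control against 12.1, 16.4 and 0).

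Of the antigens of the sort, Cd34 was at 1323, 1285 and 1157 in controls and 1222, 1176 and 1160.0 in eKO, and Itga6 at 2047, 2121 and 2311 against 3290.4, 3141 and 3236. Itga6 rose (log2 fold change 0.58, SE 0.09, limma adjusted p 5.10e-04) and Cd34 did not pass the threshold (-0.08, SE 0.10, adjusted p 0.638). Endothelial cells carry both as well, so these values do not tell the sources apart. The Y-linked gene Ddx3y was lower in eKO HFSC, at 1216, 1186 and 1176 in controls against 359, 434 and 409, and every eKO library still held it. A difference in the sex make-up of the libraries and the genotype cannot be told apart in these 6 libraries.

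In whole skin, where the genotype difference took no part in choosing the genes, the 35 genes overlapped between genotypes in every case. Of all 16589 tested genes 4.18% did not overlap, 1.74% higher and 2.45% lower in eKO. Of the 34 that passed the filter, limma called 0, against 0.374% of all tested genes (0.229% higher and 0.145% lower). At an unadjusted p under 0.05 there were 4 (Sox7, Sox18, Flt1 and Eng) of 34, where 14.2% of all tested genes were under it. By edgeR 0 were called, and by DESeq2 1, Sox7, where DESeq2 called 3.99% of all genes. The median log2 fold change was 0.18, with 27 genes above 0 and 7 below, against a median of 5.91e-05 over all genes. The genes varied together between skin libraries, as described below, so these signs are not independent and nothing is read from their count. The summed level was 1053 to 1654 RPM in control skin and 1139 to 2043 in eKO skin, ranges that overlap widely.

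Sox7 had the largest skin difference. Its control libraries held 338, 247, 371, 205 and 206 and its eKO libraries 522, 328, 588, 1122 and 532, with a log2 fold change at 1.10 and an SE of 0.30 (adjusted p 0.141, limma). The eKO libraries were high except for replicate 2, which lay below 2 of the controls, so the groups overlapped. DESeq2 gave 1.18 with an adjusted p of 0.0106, and the adjusted p ran from 0.0106 to 0.256 over all alternatives. Sox18 was at 214 ± 71.8 (SD, n = 5) against 317 ± 52.7 (SD, n = 5) (log2 fold change 0.61, SE 0.23, limma adjusted p 0.254) and Flt1 at 745 ± 220.1 (SD, n = 5) against 1103 ± 253 (SD, n = 5) (0.59, SE 0.22, limma adjusted p 0.257). Of genes that were far apart in HFSC, Aqp1 was at 0.10 (SE 0.23), Plvap at 0.29 (SE 0.16) and Cytl1 at -0.28 (SE 0.36) on the log2 scale. Pecam1 and Cdh5 were at 0.08 (SE 0.21) and 0.32 (SE 0.28). A missed threshold does not show that the genotypes were alike in skin, since the standard errors were up to 0.37.

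**Figure D4:**
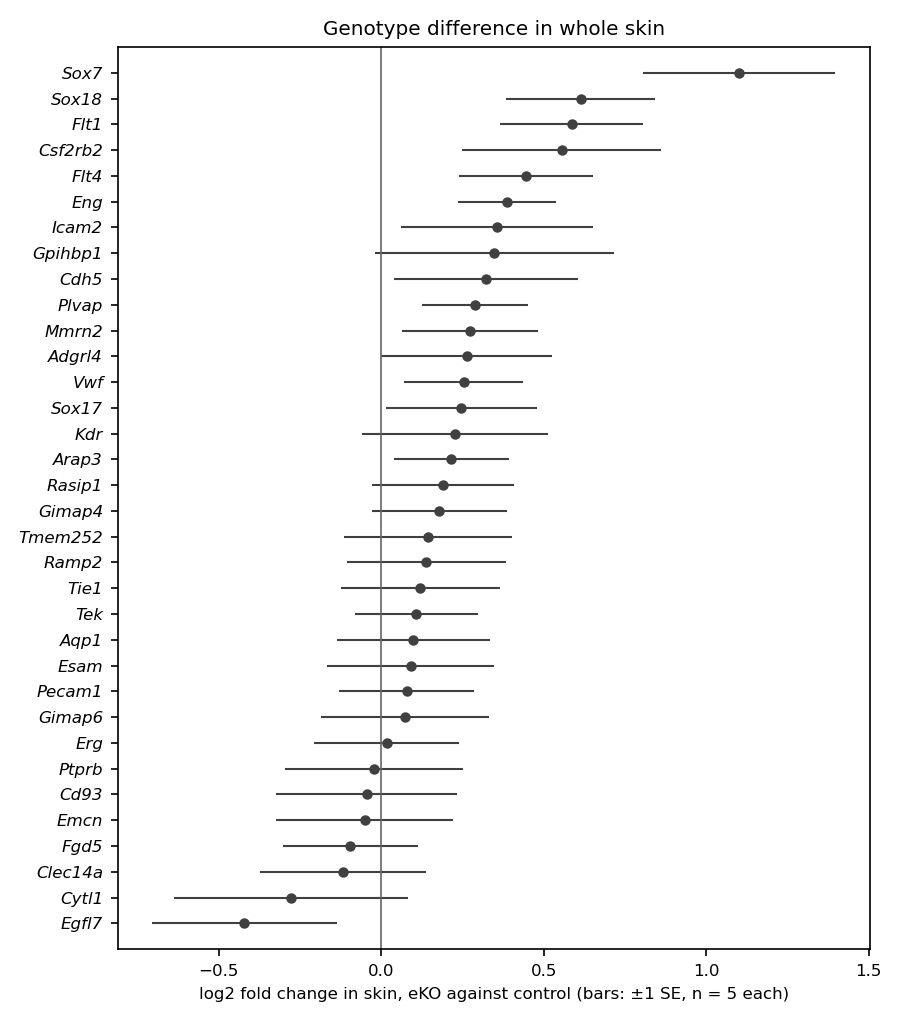
The log2 fold change in whole skin, eKO against control, is plotted for the 34 genes that passed the filter, with bars of 1 standard error on each side (n = 5 libraries each). Sox7 lies highest at 1.10, Egfl7 lowest at -0.42, and none passed limma's threshold.

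Within skin the genes varied together from library to library. The median gene deviation ranged from -0.47 (control replicate 4) to 0.57 (eKO replicate 2) on the log2 scale, and the next lowest library was eKO replicate 3 at -0.42. High and low libraries occurred in both genotypes. The standard deviation over the 10 skin libraries had a median of 0.416 over 34 genes, and of 0.231 once the median deviation of each library was subtracted. It fell for 31 of the 34. The 5 genes that still varied by more than 0.4 were Sox7 (0.79), Cytl1 (0.50), Csf2rb2 (0.48), Clec14a (0.45) and Ramp2 (0.41). Sox7, Cytl1 and Clec14a are also the 3 genes that stood highest in eKO HFSC relative to skin, whereas Csf2rb2 and Ramp2 were below the skin level. This spread covers both genotypes, so that of Sox7 includes its genotype difference. Cytl1 and Clec14a were among the genes with fewest skin reads, where counting error adds to the spread. Tie1, Esam, Mmrn2, Arap3 and Pecam1 followed the other genes most closely, each within 0.15. Among the 181 tested genes of the other lists, limma and edgeR called 0 in skin, 20 had an unadjusted p under 0.05 (all genes, 14.2%), and DESeq2 called 4 (all genes, 3.99%).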

How the data were processed

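The authors deposited 1 table per tissue whose signal, per the values themselves, is gene read counts divided by 1 size factor per library. Whole reads were recovered for 100% of nonzero values in both tables (tolerance 0.01). Per the submitters' processing notes, the build was GRCm39 for both tables, and featureCounts and DESeq2 are named for skin. The aligner, annotation and strand setting are not given in the sources used here. Symbols were matched by Ensembl identifier to GENCODE M21 names (94.1% of skin and 91.4% of HFSC rows), and exon lengths come from that annotation.

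Each tissue was fitted on its own with limma 3.58.1 (trended prior) after adding a pseudocount of 1 and taking log2. A gene was tested where its value reached 10 in at least 3 HFSC or 5 skin libraries, and p-values were adjusted over all such genes by Benjamini-Hochberg. A gene under 10 in its controls could therefore be tested only through its eKO level, in the marker lists too. The design assumed this normalised unit, and edgeR 4.0.16 and DESeq2 1.42.0 on recovered reads were alternatives; edgeR called 2609 genes in HFSC and 54 in skin, where limma called 2673 and 62 and DESeq2 3016 and 656. Fold changes on this scale understate low genes. The limma step was tested on simulated data. Other alternatives were the pseudocount, the filter, library-size scaling, leaving out each library and a replicate block.

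The 35 genes and the 18 marker lists were chosen with earlier results of these data known. Values in every library are given for the 3 highest genes of each role group in eKO HFSC, for those that overlap or failed the filter, and, from each marker list, for the highest gene, the largest called change and defining markers. The promoter rule was narrowed to genes with a RefSeq entry. Replicates of a group differed by more than sampling noise in all pairs. The intervals and floors cover counting error only, since the sources used here name no molecular identifiers.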

Additional observations from a re-analysis of the deposited data

Results flagged for a closer look

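In 68 skin groups of 5 libraries, 1 for each gene and genotype with any reads, a single library stood far from the other 4 in 2. Chance alone would set apart about 5% of such groups. Egfl7 was at 133 in skin control replicate 1, where the other controls ran from 63.5 to 77.3. Rasip1 was at 282 in skin control replicate 3, against 166 to 195 in the other controls. Neither gene passed limma's threshold in skin.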

How the results depend on the processing

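The HFSC counts of the 35 genes describe a comparison that chose them and support nothing. Of 27 tested, 25 were called higher (all genes, 10.7%), 21 to 25 when 1 library was left out, and 24 to 26 with edgeR, DESeq2, another pseudocount, no filter or library-size scaling. A filter at 50 left 15 genes to test and 15 called. With the replicate block, 24 were called; same-numbered libraries did not deviate together (correlations -0.06, -0.02 and -0.03), no library correlated best with its own number, and the numbers pair nothing. Of the other pan-endothelial genes 10 were called higher, 6 of 12 tested with the filter at 50, 9 to 10 without 1 library and 10 with the replicate block. Ramp2 lost its call under 8 alternatives, Tek under 5, and Kdr and Icam2 each without eKO replicate 3; no sign was reversed among these results. In skin, 0 genes were called under every alternative except DESeq2, which called 1; over all genes DESeq2 called 656 in skin, limma 62 and edgeR 54. The median level in eKO HFSC was 27.3% of control skin, 16.5% on the deposited values, 24.3% against eKO skin, 56.3% over the 17 genes at 50 or more, and 26.1% to 31% without 1 library. On the deposited scale the skin values sum to more per library than the HFSC values, and the filters at 50 leave fewer genes. Depth limits the genes at few reads, where 1 read moves the value.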

Other observations

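The sorted libraries also held the epithelial programme of the bulge. Krt15, the bulge keratin, had most reads (114323 ± 2287 (SD, n = 3) against 105841 ± 12306 (SD, n = 3)). Of 15 bulge genes tested, 2 rose and 3 fell (limma), beside 10.7% and 8.74% of all tested genes. The largest change was in Itga8, an integrin chain that mesenchymal cells also make, from 0, 2.1 and 0 to 40.2, 30.7 and 59.7.

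Of 9 keratinocyte genes, 5 rose and 0 fell, beside 10.7% and 8.74% of all tested genes. Krt5 had most reads (31133 ± 594 (SD, n = 3) against 44663 ± 4579 (SD, n = 3)). Krt1, a keratin of differentiating epidermis, changed most (1098 ± 326 (SD, n = 3) against 9713 ± 264 (SD, n = 3)). Of 6 melanocyte genes, 1 of 4 tested fell, Mitf, from 1839 ± 213 (SD, n = 3) to 642 ± 173 (SD, n = 3). Limma called 0 of 5 Schwann cell genes tested, of which Ngfr had most reads (877 ± 83.6 (SD, n = 3) against 912 ± 103 (SD, n = 3)).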
